A study of Mus musculus with 7 samples.

Results

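The GATA zinc finger factors *Gata4*, *Gata5* and *Gata6*, the GATA cofactor *Zfpm2* (Fog2), the NK homeodomain factors *Nkx2-5* and *Nkx2-6* and the basic helix-loop-helix factors *Hand1* and *Hand2* were examined for open chromatin in the second heart field (SHF). The 8 genes were chosen by name, and the peaks of 7 ATAC-seq libraries were taken from 50 kb upstream to 50 kb downstream of each gene body (GRCm38). Peaks at q at most 0.01 in at least 1 library were merged across libraries into 210347 regions over the genome, of which 139 lay in the windows of the 8 genes. *Gata4* had 26 of them, *Nkx2-5* 22, *Gata5* 21, *Hand1* 17, *Hand2* 16, *Nkx2-6* 14, *Zfpm2* 12 and *Gata6* 11.

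These genes form the core of the cardiac transcription factor network. GATA factors bind GATA sites in the regulatory regions of heart genes, Zfpm2 binds the GATA zinc finger and modulates its activity, NK factors bind with GATA and T-box partners, and Hand factors dimerise with E proteins at E-boxes. In the mouse embryo *Nkx2-5* and *Gata4* mark cardiac progenitors and myocardium, *Hand2* is used in the SHF and right ventricle, *Hand1* in the left ventricle, and *Nkx2-6* in the pharynx and sinus venosus.

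Cells came from the dissected SHF region of E9.5 mouse embryos, pooled and sorted by flow cytometry. GFP+ cells (replicates 3 and 4) and GFP- cells (replicates 1 and 2) were from *Hoxb1*-GFP embryos, where GFP marks the posterior SHF. Tomato+ cells (replicates 6 and 8) and Tomato- cells (replicate 7, a single library) carried *Mef2c-Cre* and *Rosa-tdT*. Cre was driven by the anterior heart field enhancer of *Mef2c*, and Tomato persists in all descendants of cells that used it. Each population belonged to 1 mouse line, so the line and the sorted domain cannot be told apart between GFP+ and Tomato+. The negative cells are the other cells of the same dissection, not 1 cell type, and fewer open cells and less opening per cell cannot be told apart. The labels do not say whether replicates were separate pools of embryos.

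The libraries held 187914 to 291287 peaks, 64306 to 77746 of them at q at most 0.01, from an estimated 52340120 to 93074895 tags. Between 37 and 58 of the peaks at q at most 0.01 lay around the 8 genes, with a pileup (overlapping tags at the summit) of 10 to 93. A pileup of 15 has an exact 95% Poisson interval of 8.4 to 24.7, which covers counting error only. Promoters of 7 posterior SHF markers were open at 6 genes in each GFP+ library, 4 and 6 in GFP-, 4 and 6 in Tomato+ and 5 in Tomato-. Promoters of 5 anterior SHF markers were open at 4 and 3 genes in GFP+, 4 and 3 in GFP-, 3 in each Tomato+ library and 4 in Tomato-. Promoters of 4 myocardial markers were open at 2 genes in each GFP+ library, 3 and 1 in Tomato+, 0 and 0 in GFP- and 1 in Tomato-. Endoderm (4 genes, 0 to 2 open), blood and endothelium (4 genes, 1 to 3 open), neural tube (3 genes, 2 or 3 open), neural crest (3 genes, 1 to 3 open) and paraxial mesoderm (3 genes, 0 to 3 open) had promoters open in some libraries of both positive and negative cells. *Hoxb1* itself was open in 6 of the 7 libraries, and *Gata1*, *Shh*, *Epcam* and *Myl7* in none. The part of other cell types in the values below was not tested.

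The DNA under the region summits is shown first, because some of the strongest regions around these genes lay in repeat sequence. All stretches run from 50 bases before to 50 bases after the summit on the GRCm38 plus strand, from the RefSeq copy of the assembly. The summit of a region is that of the library whose peak there had the smallest p. The region highest by fold enrichment in GFP+, GFP- and Tomato- lay 9.8 kb upstream of *Nkx2-6*, at chr14:69161927-69162027 (region chr14:69161786-69162964), between genes. Capitals mark whole copies of the telomere hexamer.

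Nkx2-6 -9.8 kb: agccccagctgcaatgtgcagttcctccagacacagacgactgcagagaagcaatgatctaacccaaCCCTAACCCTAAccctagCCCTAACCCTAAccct

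The 100 bp on either side of this summit held 13 hexamers. Of all 210347 regions, 149 (0.0708%) held 5 or more in the same span, and this was the only one of the 139. The reads kept were primary alignments in proper pairs, and a limit on mapping quality is not given in the sources used here. Another of the strongest regions that overlapped no promoter lay 43.1 kb downstream of the *Hand1* start, at chr11:57788954-57789054. The reference marks 100% of these letters as repeat by lower case (soft-masking). They carry no capitals because no motif string below was found in them. The wider span counted below, 100 bp on either side of the summit, held a TBX string.

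Hand1 +43.1 kb: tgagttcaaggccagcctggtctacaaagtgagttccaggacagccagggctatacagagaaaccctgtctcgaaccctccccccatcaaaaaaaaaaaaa

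The remaining distal regions that the comparisons turn on had unique letters for the most part, with 0 to 16.8% soft-masked. They are shown because their signal differed between groups (*Gata4*, *Gata5*, the first 2 of *Hand2*) or was the strongest of the *Hand2* window (+32.8 kb). Capitals mark a HAND string in *Hand2* +20 kb and +32.8 kb, a TBX string in *Hand2* +13 kb and a CTCF string in the *Gata4* and *Gata5* regions. The stretches lie at chr14:63255889-63255989, chr2:180347253-180347353, chr8:57333893-57333993, chr8:57340955-57341055 and chr8:57353732-57353832, in the order printed. In the same order, the summits of the libraries in which each region was open spread over 278, 24, 545, 233 and 18 bp. The printed stretches of *Gata4* -10.7 kb and *Hand2* +13 kb and +20 kb thus did not hold the summit of every library.

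Gata4 -10.7 kb: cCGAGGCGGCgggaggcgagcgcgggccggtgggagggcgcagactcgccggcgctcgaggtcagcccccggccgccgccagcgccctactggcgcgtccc
Gata5 -12.6 kb: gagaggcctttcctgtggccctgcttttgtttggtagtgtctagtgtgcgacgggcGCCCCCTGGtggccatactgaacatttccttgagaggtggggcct
Hand2 +13 kb: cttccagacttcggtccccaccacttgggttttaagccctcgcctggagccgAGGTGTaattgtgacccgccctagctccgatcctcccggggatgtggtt
Hand2 +20 kb: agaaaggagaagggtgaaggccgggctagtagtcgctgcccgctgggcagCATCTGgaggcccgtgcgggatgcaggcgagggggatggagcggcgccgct
Hand2 +32.8 kb: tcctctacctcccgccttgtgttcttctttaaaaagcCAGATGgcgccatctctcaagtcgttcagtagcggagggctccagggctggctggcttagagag

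Promoter openness divided the 8 genes. The promoters of *Gata5*, *Gata6* and *Zfpm2* were open in all 7 libraries, that of *Gata4* in 6, *Hand2* in 3 and *Nkx2-5* in 2, while *Nkx2-6* and *Hand1* had no promoter peak at q at most 0.01 in any library. A promoter here ran from 1000 bp upstream to 100 bp downstream of the start of a curated RefSeq transcript, and open means a peak at q at most 0.01. Over 21000 protein-coding genes, 53.1% had a promoter open in all 7 libraries and 28.3% in none, against 3 and 2 of the 8.

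**Figure D1:**
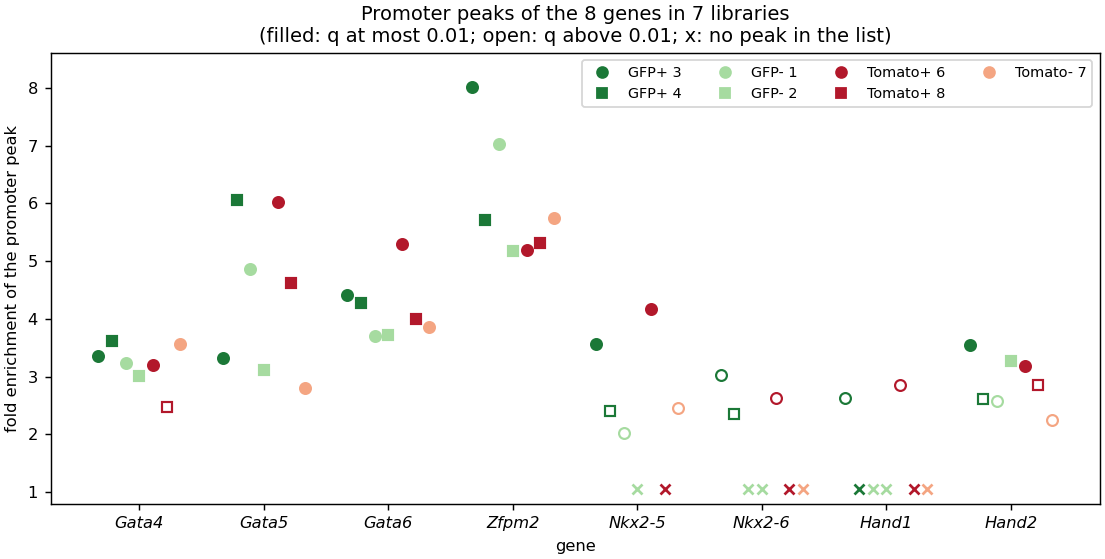
Fold enrichment (y axis) of the strongest promoter peak of each gene (x axis) in each of the 7 libraries, with filled symbols for q at most 0.01, open symbols for q above 0.01 and an x at the bottom, which has no value, where no peak was listed. *Zfpm2* was above 5-fold in all 7 libraries, and *Nkx2-6* and *Hand1* had no filled symbol.

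*Zfpm2* had the strongest promoter of the 8 in 5 of the 7 libraries, with *Gata5* higher in GFP+ replicate 4 and both *Gata5* and *Gata6* higher in Tomato+ replicate 6. Its promoter peak was 8.01-fold and 5.72-fold over the local background in GFP+, 7.03 and 5.18 in GFP-, 5.2 and 5.32 in Tomato+ and 5.75 in Tomato-. Between 17.1% and 38.8% of coding genes had a stronger promoter peak in the same library. The gene is long, and its window of 550 kb held 12 regions, or 2.18 per 100 kb against a median of 13.3 over coding genes, so that 8.73% of coding genes had fewer. Of the 12 regions, the promoter (chr15:40654449-40656356) was open in all 7 libraries, 9 were open in 1 library each, and the other 2 in 2 or 4. The best distal region with peaks in every library lay 46.7 kb beyond the gene end at chr15:41151181-41151562, with 3.01-fold and 3.0-fold in GFP+, 4.03 and 3.80 in GFP-, 3.61 and 2.83 in Tomato+ and 3.24 in Tomato-, and 100% of its summit letters were soft-masked. No region inside the *Zfpm2* introns was open in more than 2 libraries. The region at +63.3 kb, for example, had a peak in Tomato+ replicate 6 alone, at 3.61-fold.

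The *Gata5* promoter (chr2:180334246-180335075) varied between replicates. The fold enrichment was 3.33 and 6.06 in GFP+, 4.87 and 3.12 in GFP-, 6.03 and 4.63 in Tomato+ and 2.81 in Tomato-. GFP- replicate 1 and both Tomato+ libraries lay between the GFP+ replicates, so no order of GFP+ against Tomato+ or GFP- could be read. Both Tomato+ libraries were above Tomato-, by 0.91 on the log2 scale of the mean, against 0.38 between the Tomato+ replicates. The best distal regions of the window lay on its far 3' side. The one at +58.6 kb (chr2:180275894-180276228), in a predicted transcript of the neighbour *Rbbp8nl*, was open in every library at 2.35-fold (Tomato-) to 4.57-fold (Tomato+ replicate 6). The one at +39.1 kb (chr2:180295317-180295652), with 100% of its summit letters soft-masked, reached 6.85-fold in Tomato+ replicate 6 and 2.97-fold in Tomato+ replicate 8, and was open in 5 libraries.

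The *Gata6* promoter (chr18:11052090-11053356), shared with the antisense transcript *Gata6os*, was the steadiest. It reached 4.41-fold and 4.28-fold in GFP+, 3.71 and 3.72 in GFP-, 5.30 and 3.99 in Tomato+ and 3.86 in Tomato-. Both GFP+ libraries lay above both GFP- libraries, and Tomato+ spanned the GFP+ values. In Tomato+ replicate 6 the local background at this promoter was 3.48 times the genome-wide level against 1.63 to 2.21 in the other libraries, and the pileup was 20.6 times the genome-wide background against 7.06 to 11.2. Fold enrichment divides by that local background. Away from the promoter, the *Gata6* window had no region open in more than 3 libraries. One, 6.6 kb into the gene over a coding exon (chr18:11058944-11059211), was open in GFP+ replicate 4, GFP- replicate 1 and Tomato- at 3.5-fold, 3.27-fold and 3.54-fold and had no peak in either Tomato+ library. The other region open in more than 1 library, in an intron at +25.8 kb, was open in GFP+ replicate 3 at 3.61-fold and Tomato+ replicate 6 at 4.52-fold. A region over coding sequence at +1.6 kb was open in Tomato+ replicate 8, at 3.02-fold.

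*Gata4* had a weak promoter and a stronger region upstream of it. The peak at the start (chr14:63245122-63245662) was 3.22-fold and 3.61-fold in GFP+, 3.23 and 3.02 in GFP-, 3.20 and 2.47 in Tomato+ and 3.57 in Tomato-, and in Tomato+ replicate 8 it missed the q limit. Between 55.1% and 67.3% of coding genes had a stronger promoter peak. The region 10.7 kb upstream (chr14:63255593-63256336) lies outside the curated gene but inside predicted longer *Gata4* transcripts. It was open in every library, at 5.18-fold and 7.45-fold in GFP+, 4.52 and 3.71 in GFP-, 4.80 and 5.34 in Tomato+ and 4.28 in Tomato-. It thus exceeded the peak at the start in each of the 7 libraries.

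The *Nkx2-5* promoter (chr17:26841145-26841680) was open in 1 replicate of each positive group and in no other library, GFP+ replicate 3 at 3.56-fold and Tomato+ replicate 6 at 4.17-fold. In the rest it was 2.41-fold in GFP+ replicate 4, 2.03-fold in GFP- replicate 1 and 2.46-fold in Tomato-, above the q limit, and no peak lay in the promoter window of GFP- replicate 2 or Tomato+ replicate 8. The difference between replicates of a group was as large as any between groups. No distal region within 40 kb of *Nkx2-5* was open in more than 2 libraries. The region 8.6 kb upstream (chr17:26849894-26850209) was open in Tomato+ replicate 6 at 3.24-fold and Tomato- at 3.02-fold. The single region of the window open in all 7 libraries lay 44.7 kb upstream at the promoter of *Gm17382* (chr17:26886109-26886458), from 3.90-fold in GFP- replicate 2 to 6.79-fold in GFP+ replicate 3.

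*Nkx2-6* had no open promoter, with at most 3.03-fold in GFP+ replicate 3 at q above 0.01 and no peak listed in either GFP- library, Tomato+ replicate 8 or Tomato-. Regions open in all 7 libraries nonetheless lay in its window. Over a coding exon near its 3' end, 3.2 kb from the start (chr14:69174603-69175407), the fold enrichment was 4.49 and 3.79 in GFP+, 4.51 and 3.64 in GFP-, 3.11 and 3.59 in Tomato+ and 3.89 in Tomato-. The telomere repeat region 9.8 kb upstream reached 15.49-fold and 15.75-fold in GFP+, 13.76 and 14.15 in GFP-, 11.22 and 12.51 in Tomato+ and 12.65 in Tomato-, and its summits in the 7 libraries fell within 8 bp.

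*Hand1* was without an open promoter as well, with 2.63-fold in GFP+ replicate 3 and 2.85-fold in Tomato+ replicate 6 at q above 0.01 and no peak in the other 5. Of the regions within 15 kb of its start, the one 12 kb downstream (chr11:57820033-57820333) was open in GFP+ replicate 4 and both Tomato+ libraries, at 3.20-fold, 3.33-fold and 3.48-fold, and the other 4 were open in 1 library each. None of the 3 regions of the window open in all 7 libraries lay within 15 kb of the start. The region at +43.1 kb, with the repeat letters shown, ranged from 7.76-fold to 10.67-fold, and the shared promoter of *Sap30l* and *2010001A14Rik* at +30.6 kb from 5.47-fold to 9.17-fold.

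*Hand2* stood in the window densest in common regions, with 4 open in all 7 libraries, 3.86 per 100 kb against a median of 1.65 over coding genes, and 86.2% of coding genes had fewer. Its promoter peak was at 3.55-fold and 2.61-fold in GFP+, 2.57 and 3.27 in GFP-, 3.18 and 2.85 in Tomato+ and 2.25 in Tomato-, and passed the q limit in GFP+ replicate 3, GFP- replicate 2 and Tomato+ replicate 6. In Tomato+ replicate 8 the peak was a different one (chr8:57319727-57319990), which only touched the upstream edge of the promoter window and had its summit outside it. The common regions lay in flanking non-coding RNA genes. One was 8.4 kb upstream in an intron of *Hand2os1*, the divergent long non-coding RNA (chr8:57312276-57312979), at 3.02-fold to 4.03-fold. The other 3 lay 13 kb, 20 kb and 32.8 kb downstream in introns of *Hdnr*, a long non-coding RNA gene next to *Hand2*. The last, chr8:57353489-57354224, was the strongest of the window, at 5.72-fold and 8.10-fold in GFP+, 7.18 and 6.78 in GFP-, 7.14 and 7.93 in Tomato+ and 6.26 in Tomato-. Its values overlapped between GFP+ and both other groups of 2, and its 7 summits fell within 18 bp.

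**Figure D2:**
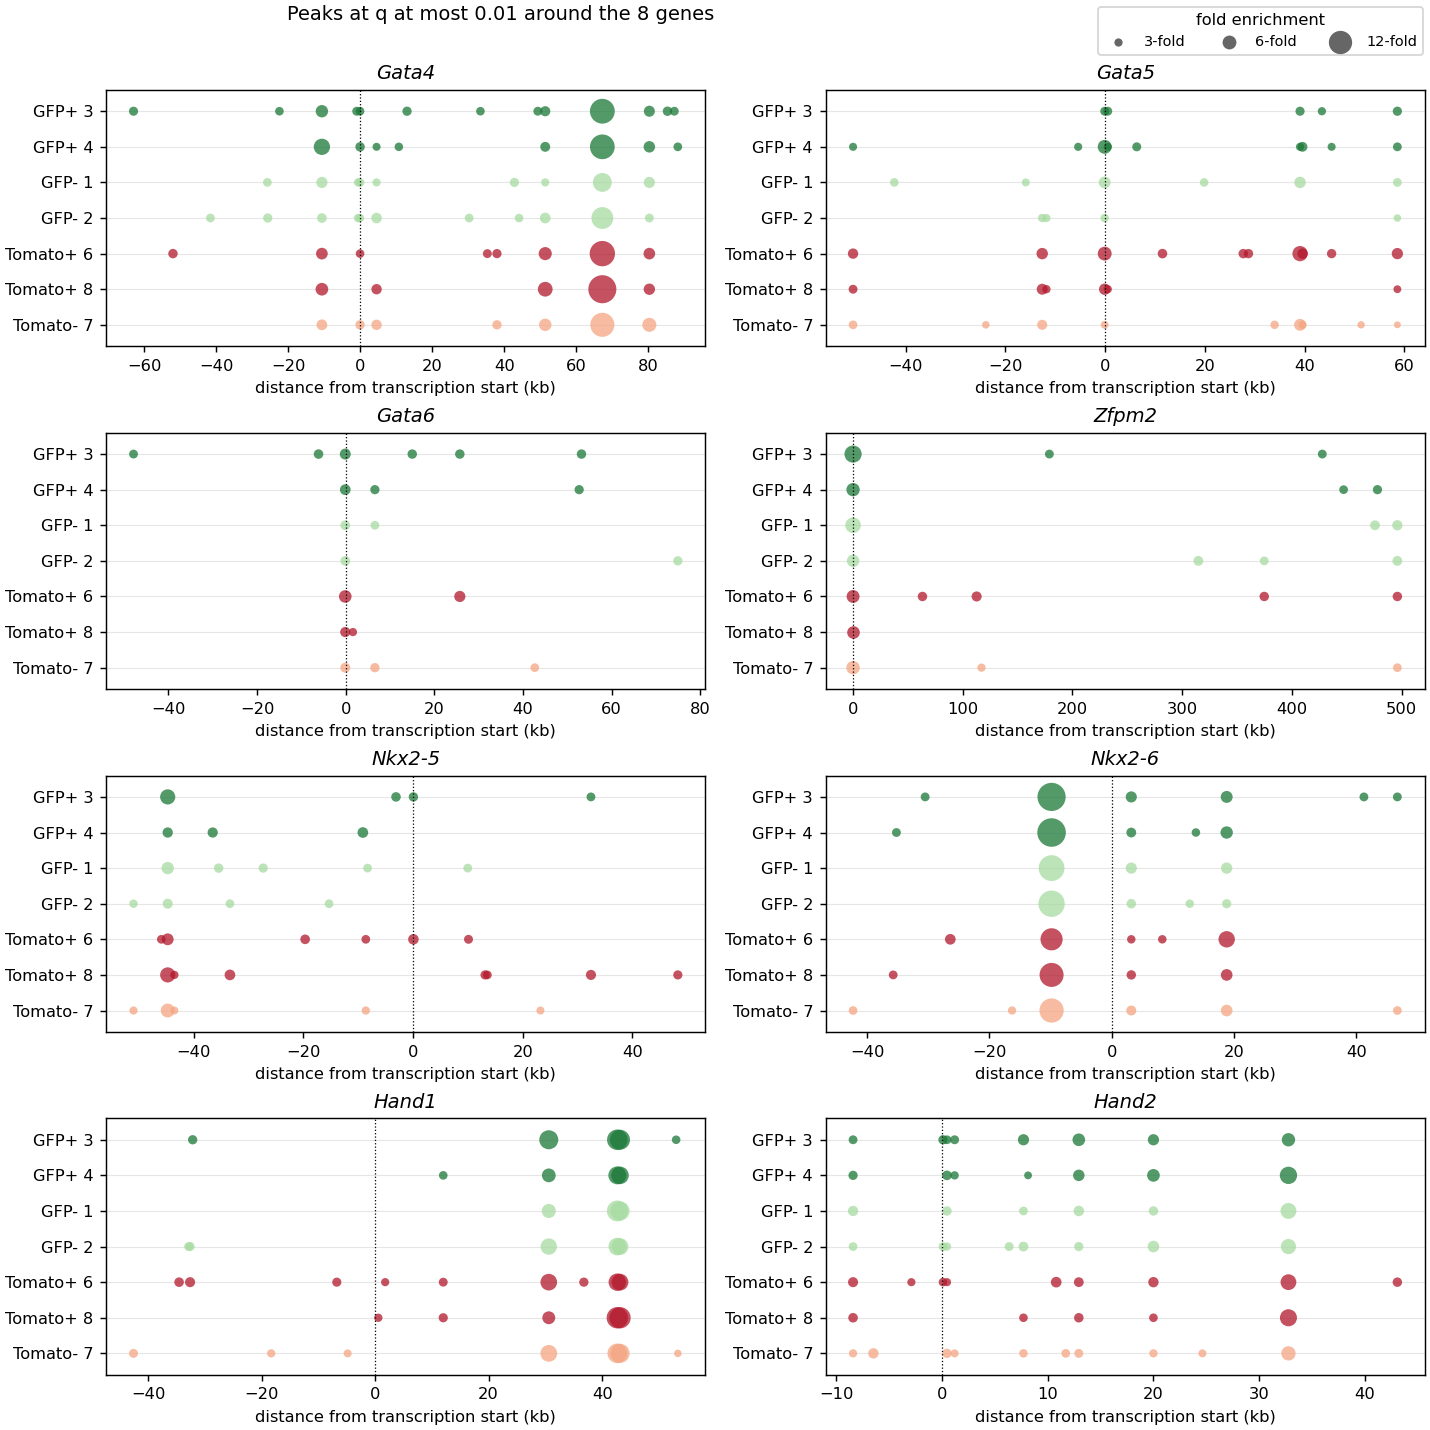
Peaks at q at most 0.01 around each gene, placed by the distance of their region's summit from the transcription start in kb (x axis, positive downstream) in each library (y axis), with the area of a dot growing with fold enrichment. Columns of dots in all 7 libraries mark the common regions, such as 4 for *Hand2*, and isolated dots the 92 regions open in 1 library.

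Most regions around these genes were not shared. Of the 139, 92 (66.2%) were open in 1 library, 28 in 2 to 6 and 19 (13.7%) in all 7. Over the genome the shares were 65.8% for 1 library and 11.2% for all 7. The 92 single-library regions reached 2.59-fold to 4.25-fold and came from every library, from 6 in Tomato+ replicate 8 to 20 in GFP+ replicate 3. Of the 19 common regions, 3 were promoters of the 8 genes, 5 were promoters of other genes and 11 overlapped no promoter.

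**Figure D3:**
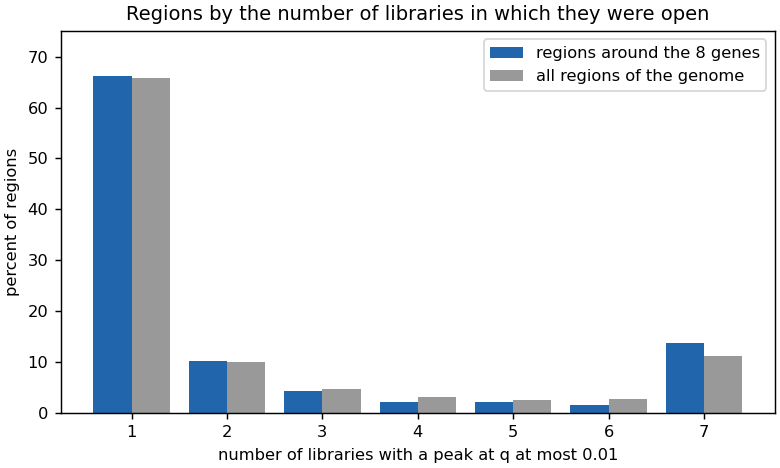
Percent of regions (y axis) by the number of libraries in which they were open (x axis), for the 139 regions around the 8 genes (blue) and all 210347 regions (grey). The blue and grey bars stood at 66.2% and 65.8% for 1 library and at 13.7% and 11.2% for all 7.

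The first comparison asked where chromatin around these genes was more open in GFP+ cells of the posterior SHF than in Tomato+ cells of the anterior SHF. Peaks were ranked in each library by fold enrichment (position 1 the strongest), and a region was called higher in 1 group when it was open in both libraries of that group and both stood ahead of every library of the other. No test was run, and 2 libraries against 2 allow no two-sided exact permutation p below 0.333. *Hand2* contributed 4 of the 10 regions called higher in GFP+, *Gata4* and *Nkx2-6* 2 each, and *Gata5* and *Zfpm2* 1 each. Over the genome 5.01% of regions were so called, against 10 of 139 here (7.19%), and among regions open in at least 2 libraries 14.6%, against 10 of 47. *Gata6*, *Nkx2-5* and *Hand1* had none. The count rests on requiring both replicates, and was 26 without GFP+ replicate 3, 36 without GFP+ replicate 4 and 16 without Tomato+ replicate 6, where the genome had 22.7%, 23.3% and 8.37%. Compared by fold enrichment itself, with no position in a list, the count was 8, against 4.24% of the genome.

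At *Hand2* +13 kb (chr8:57333800-57334563) the fold enrichment was 5.32 and 4.69 in GFP+ and 4.17 and 3.51 in GFP-. It was 3.79 and 3.63 in Tomato+ and 3.37 in Tomato-. The summits of the 7 libraries spread over 545 bp of this region of 764 bp. The values therefore do not all belong to the printed stretch with the TBX string. Both GFP+ libraries were the highest of the 7, at positions 16815 and 20719, with Tomato+ at 41259 and 39816. On the log2 scale the GFP+ mean exceeded Tomato+ by 0.43, with 0.18 between the GFP+ replicates and 0.06 between the Tomato+ replicates. With the strictest limits, q at most 0.0001 or the 30000 smallest p of each list, this region was no longer called. The mean log2 position ratio of Tomato+ over GFP+ was then 0.29 with either limit, against 1.12 in the main setting.

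At *Hand2* +20 kb (chr8:57340758-57341282) the values were 4.54 and 5.36 in GFP+ and 3.6 and 4.73 in GFP-. They were 4.08 and 3.20 in Tomato+ and 3.03 in Tomato-. The summits of the 7 libraries spread over 233 bp, beyond the printed stretch with the HAND string. GFP+ stood at positions 22217 and 15988 against 32435 and 57026 in Tomato+, and GFP- replicate 2 lay between the GFP+ replicates. By pileup in place of fold the groups overlapped.

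The other 2 *Hand2* regions lay in the gene itself, over untranslated exon sequence that also falls in the promoter window of *Hand2os1* (chr8:57321284-57321920) and over coding sequence (chr8:57321935-57322404). They reached 3.25-fold and 3.71-fold, and 3.35-fold and 3.07-fold, in GFP+, and 2.95 and 2.74, and 2.59 and 2.7, in Tomato+. In Tomato- they were 3.55-fold and 2.89-fold, above both Tomato+ libraries. The first was no longer called with either of the strictest limits or by pileup. The second gave no value with either of the strictest limits, so its call was not shown to hold there. The local background there was 2.49 and 2.53 times the genome level in Tomato+ replicate 6, and 1.37 to 1.73 times in the other 6 libraries.

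The *Gata4* region at -10.7 kb was ahead in GFP+ by a narrow gap in position, 17377 and 8227 against 21507 and 17642 in Tomato+. By fold enrichment the groups overlapped, since Tomato+ replicate 8 (5.34-fold) was above GFP+ replicate 3 (5.18-fold), and the call rests on positions in lists of different length. In GFP+ it also stood ahead of both GFP- libraries, at 21536 and 35413. The mean difference from Tomato+ was 0.29 on the log2 scale, less than the 0.52 between the GFP+ replicates. The peak at the *Gata4* start differed by 0.28, with GFP+ at 67383 and 36763 and Tomato+ at 86409 and 157214, and was no longer called at q at most 0.0001.

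The *Zfpm2* promoter region stood at positions 7216 and 14344 in GFP+ and 15990 and 17723 in Tomato+, 0.33 apart on the log2 scale of fold enrichment with 0.49 between the GFP+ replicates. In Tomato+ replicate 6 the peak that stood for the region, at 5.47-fold, lay inside the gene beyond the promoter window, and the promoter peak itself was at position 18092. By percent of list the groups overlapped. At *Gata5*, a region over coding sequence 522 bp from the start (chr2:180333953-180334235) was at 3.35-fold and 3.02-fold in GFP+ and 2.56-fold and 3.03-fold in Tomato+. The fold values overlapped, so that this call rests on positions, 64765 in GFP+ replicate 4 against 78953 in Tomato+ replicate 8. Its -log10 q was 4.03 and 3.32 in GFP+ and 1.46 and 2.45 in Tomato+, and it gave no value with either of the strictest limits.

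The 2 *Nkx2-6* regions were the telomere repeat, at positions 1128 and 1057 in GFP+, 1685 and 1498 in GFP-, 2597 and 2691 in Tomato+ and 2391 in Tomato-, and the coding exon, at 23905 and 31329 in GFP+ and 92138 and 40688 in Tomato+. The coding exon was no longer called with the 30000 smallest p of each list or by pileup. The repeat region gave the clearest separation of the 10. The GFP+ mean was 0.40 above Tomato+ on the log2 scale, with 0.02 and 0.16 between replicates. Both *Hoxb1*-GFP populations, GFP+ and GFP-, were above all 3 libraries of the *Mef2c-Cre;Rosa-tdT* line.

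Regions higher in Tomato+ numbered 4 of 139 (2.88%), against 4.14% of the genome, and 9, 18 and 35 without GFP+ replicate 4, Tomato+ replicate 6 and Tomato+ replicate 8, where the genome had 7.12%, 19.8% and 21.9%. The *Gata5* region 12.6 kb upstream (chr2:180347054-180347542), with the CTCF string at its summit and the start of the predicted gene *Gm52543* beside it, had the widest gap. It reached 4.65-fold and 4.42-fold in Tomato+, 3.93 in Tomato- and 3.11 in GFP- replicate 2. It was 2.74-fold and 2.7-fold in GFP+, above the q limit, and had no peak in GFP- replicate 1. Tomato+ stood at positions 22569 and 24630 and GFP+ at 123230 and 117860. The other 3 lay at annotated promoters. Of these, 2 were at the *Neil2* and *Fdft1* promoters next to *Gata4*, and the third was at -50.6 kb from *Gata5*. It overlapped promoters of both *B230312C02Rik* and *Mir1a-1hg*, the host gene of the muscle microRNA miR-1, with its summit in an intron of *B230312C02Rik*.

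The region shared by *B230312C02Rik* and *Mir1a-1hg* (chr2:180384994-180385894) was at 4.08-fold and 3.33-fold in Tomato+, 3.23 in Tomato-, 2.75 and 2.93 in GFP+ and 2.1 and 2.64 in GFP-. It was no longer called with either of the strictest limits or by pileup. The *Neil2* promoter was at 5.58-fold and 6.53-fold in Tomato+ and 3.97-fold and 3.85-fold in GFP+, a difference of 0.63 on the log2 scale against 0.23 and 0.04 between replicates. The *Fdft1* promoter, at 13.43-fold and 15.39-fold against 13.06-fold and 13.01-fold, differed by 0.14 and no longer separated by percent of list or pileup.

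No region around the 8 genes was open in both libraries of GFP+ without a peak in Tomato+, or the reverse. Over the genome 0.518% and 0.397% of regions were. These counts too rest on both replicates. Without GFP+ replicate 3 or 4 there were 8 and 18 such GFP+ regions (genome 9.85% and 11%), and 1 without Tomato+ replicate 6 (genome 1.45%). Without Tomato+ replicate 6 or 8 there were 6 and 13 such Tomato+ regions (genome 7.56% and 9.57%).

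**Figure D4:**
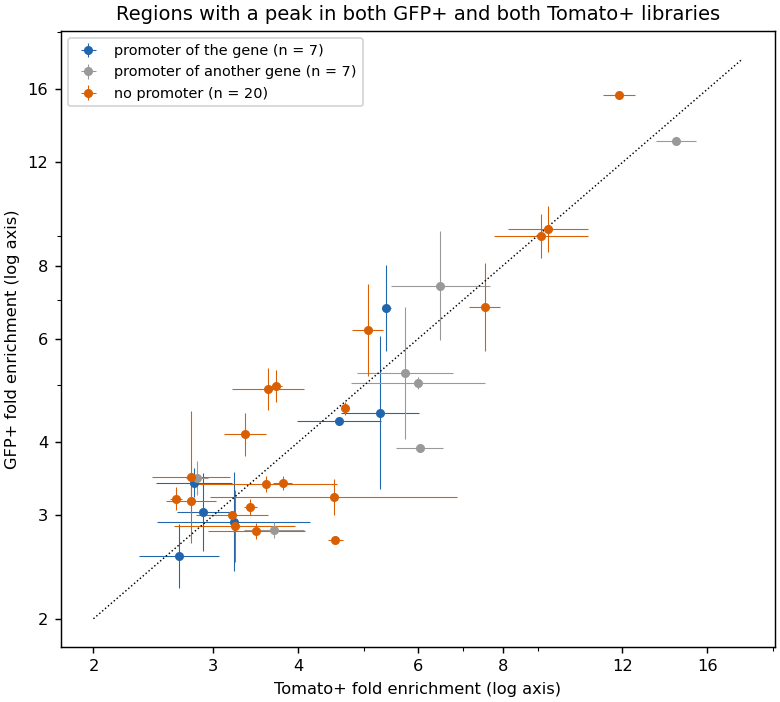
Geometric mean fold enrichment in GFP+ (y axis, log) against Tomato+ (x axis, log) for the 34 regions open in at least 2 libraries with a peak in all 4 libraries, with bars from the lower to the higher replicate and a dotted line of equality. The telomere repeat near *Nkx2-6* is the highest point on the GFP+ axis, above the line, and the *Fdft1* promoter lies below the line and farthest to the right.

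The second comparison set each positive population against the negative cells of the same line. It shares its GFP+ libraries with the first. GFP+ was higher than GFP- at 8 of 139 regions (5.76%), against 4.85% of the genome, and GFP- higher at 3 (2.16%), against 4.58%. The first count was 31, 38 and 19 without GFP+ replicate 3, GFP+ replicate 4 and GFP- replicate 1 (genome 22.8%, 23.5% and 7.97%), and the second 20 and 18 without GFP- replicate 1 and 2 (genome 21.3% and 19.4%). Among the 8 were *Hand2* +13 kb and the *Hand2* coding region, *Gata4* -10.7 kb, the *Gata5* coding region, the *Gata6* promoter, the *Nkx2-6* telomere repeat and the promoter of *Fdft1*. The largest difference among those with a peak in every library was at *Gata4* -10.7 kb, where GFP+ exceeded GFP- by 0.60 on the log2 scale. The 3 higher in GFP- were the *Gata4* coding exon 4.5 kb from the start, a second promoter peak of *Gata4*, and the repeat beyond *Zfpm2*.

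Tomato+ was higher than Tomato- at 11 of 139 regions (7.91%), against 5.48% of the genome, among them the *Gata5* and *Gata6* promoters, *Gata4* -10.7 kb, *Gata5* -12.6 kb and *Hand2* -8.4 kb, +13 kb and +32.8 kb. The count was 24 and 44 without Tomato+ replicate 6 and 8 (genome 22.4% and 24.4%). Tomato- was higher at 30 (21.6%), against 21.7% of the genome. A single library has no replicate spread, so these counts rest on where 1 library happened to stand. The *Gata6* promoter, *Gata4* -10.7 kb, *Hand2* +13 kb and the promoter of the neighbour *Fdft1* were higher in the positive than in the negative cells of both lines. In that order the differences were 0.23 and 0.25, 0.60 and 0.24, 0.39 and 0.14, and 0.38 and 0.20 on the log2 scale. In the same order, the log2 ranges between the GFP+ and between the Tomato+ replicates were 0.04 and 0.41, 0.52 and 0.15, 0.18 and 0.06, and 0.00 and 0.20. The difference from Tomato- was thus below the Tomato+ range at the *Gata6* promoter and no larger than it at *Fdft1*. The genome share of regions higher in the positive cells of both lines was not computed, so this list cannot be read against it.

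**Figure D5:**
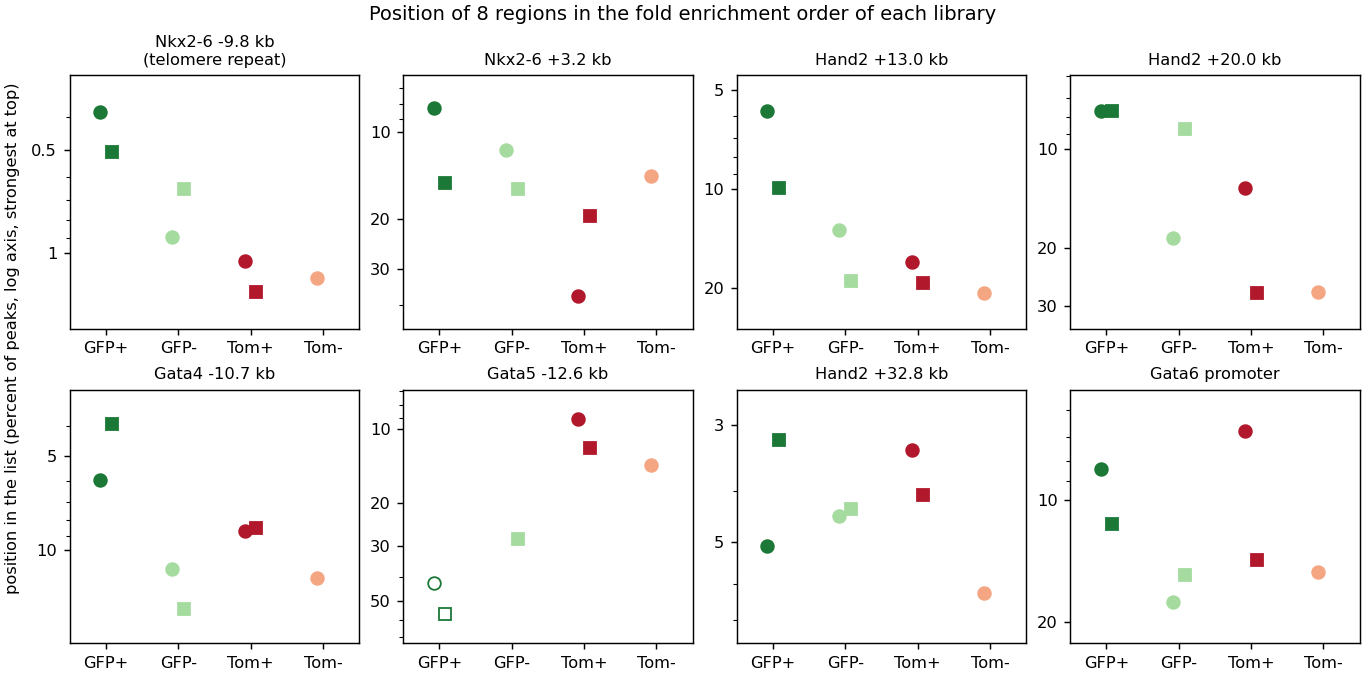
Position of 8 regions in each library as percent of its peaks (y axis, log, strongest at the top) by population (x axis), circles and squares being the replicates in the order 3 and 4 (GFP+), 1 and 2 (GFP-), 6 and 8 (Tomato+) and 7 (Tomato-), open where q was above 0.01. *Hand2* +13 kb and *Gata4* -10.7 kb have both GFP+ symbols on top, *Gata5* -12.6 kb has Tomato+ on top and no peak in 1 GFP- library.

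Over the 19 common regions, differences between groups were of the same order as those between replicates. The median absolute log2 ratio between replicates was 0.24 in GFP+, 0.31 in GFP- and 0.23 in Tomato+. Between group means it was 0.19 for GFP+ against Tomato+, 0.21 for GFP+ against GFP- and 0.24 for Tomato+ against the single Tomato- library. Over the 23628 regions of the genome open in all 7 libraries the values were 0.21, 0.21 and 0.26 between replicates and 0.18, 0.16 and 0.18 between groups. A mean over replicates varies less than a single library, so the ratios between replicates and between groups are not on equal terms.

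Binding strings were counted on both strands in the 100 bp on either side of each region's summit, that of the library with the smallest p. GATA strings (AGATAA or TGATAA) were in 18 of 139 regions (12.9%) and 11.5% of all regions, but in 0 of the 19 common regions against 7.49% of common regions genome-wide. The NKX string (TNAAGTG) was in 10 (7.19% against 8%), the HAND string (CATCTG) in 20 (14.4% against 16.8%) and the TBX string (AGGTGT) in 19 (13.7% against 11.9%). The TEAD string (GGAATG) was in 11 (7.91% against 11.1%), the PBX-HOX string (TGATNNAT) in 8 (5.76% against 6.37%), the MEIS string (TGACAG) in 18 (12.9% against 15.5%) and the MEF2 string in 3 (2.16% against 2.35%), 1 of them within the telomere repeat. The CTCF string (CNAGGNGGC), added after the sequences were seen, was in 11 (7.91% against 5.02%). Of the 19 common regions, 3 held the HAND string (10.1% of common regions genome-wide), 3 the CTCF string (8.1%), 2 the TBX string (7.29%) and 2 the TEAD string (8.16%). The NKX (4.91%), MEIS (9.9%) and MEF2 (1.57%) strings were in 1 each and the PBX-HOX string (4.88%) in 0. The 2 with the TBX string were *Hand2* +13 kb and the soft-masked region *Hand1* +43.1 kb.

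Promoter sequences from RefSeq (GRCm38.p6) were held for *Gata5*, *Hand2* and *Nkx2-5*, and no entry was held for *Gata4*, *Gata6*, *Zfpm2*, *Nkx2-6* or *Hand1*. They are printed for a gene with an open promoter in all libraries and 2 whose promoter was open in some, as the 150 bases before the start on the strand of the gene, at chr2:180334680-180334829 (minus), chr17:26841566-26841715 (minus) and chr8:57320833-57320982 (plus). The capitals mark the only string found, MEIS in *Nkx2-5*, which 9.67% of 32851 promoters of this length held.

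Gata5 promoter: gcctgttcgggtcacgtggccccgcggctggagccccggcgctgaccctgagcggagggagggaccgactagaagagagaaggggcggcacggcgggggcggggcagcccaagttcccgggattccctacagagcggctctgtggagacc
Nkx2-5 promoter: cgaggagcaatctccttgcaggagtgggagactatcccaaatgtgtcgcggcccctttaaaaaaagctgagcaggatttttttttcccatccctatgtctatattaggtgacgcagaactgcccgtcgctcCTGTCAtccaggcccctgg
Hand2 promoter: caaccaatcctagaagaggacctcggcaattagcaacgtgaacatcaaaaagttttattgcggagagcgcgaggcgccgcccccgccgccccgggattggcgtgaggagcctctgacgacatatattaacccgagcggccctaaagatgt

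These stretches were 72% G or C for *Gata5*, 52% for *Nkx2-5* and 56% for *Hand2*. Windows of 14 paralogs of the same families held 266 regions, of which 14 (5.26%) were open in all 7 libraries, 12 (4.51%) higher in GFP+ and 12 (4.51%) higher in Tomato+. Windows of 12 cardiac partner factors held 298, with 28 (9.40%) open in all 7, 13 (4.36%) higher in GFP+ and 9 (3.02%) higher in Tomato+. Over the genome the shares were 11.2%, 5.01% and 4.14%.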

How the data were processed

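ATAC-seq libraries of sorted E9.5 cells were analysed from the peak lists the authors deposited, 1 per library. Reads were mapped by the authors to GRCm38 (SNAP), who removed duplicates, unpaired and secondary alignments and blacklisted regions, and called peaks per library with MACS2 (version 2.1.1 in the submitters' notes; the 1 file header gives 2.1.0, p 0.01, shift 37 bp, extension 73 bp, no further duplicate removal and no control). The deposited columns are pileup (signal, unscaled tag coverage), -log10 p-value, -log10 q-value and the fold ratio over the local background. That header names a YFP run for a library labelled Tomato+ (replicate 6), and the label was followed.

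Summit lines were collapsed to peaks, tags estimated from the lowest background, and peaks at q at most 0.01 merged at 1 bp. The peak with the smallest p stood for a library. Calls were checked on 2819 simulated regions. Python 3.11.15 with pandas 2.3.3 and pysam 0.24.0 was used. Alternatives changed the q limit, peak number, overlap, window, ranking and libraries. The genes and lists were chosen with earlier results of these data known. Text names all 8 genes and promoters, the best 2 distal regions per gene by median position, and up to 6 regions per direction with the widest gap; others were chosen after their values were seen. No test between groups was run. A few regions are not reported here.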

Additional observations from a re-analysis of the deposited data

Results flagged for a closer look

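In 2 regions both GFP+ libraries stood ahead of both GFP- libraries while both Tomato+ libraries stood behind Tomato-, and the difference between the lines was not tested. Over the genome 4.85% of regions were called higher in GFP+ than GFP- and 21.7% higher in Tomato- than Tomato+. The genome share with both calls was not computed. At the *Nkx2-6* telomere repeat (-9.8 kb), the mean log2 position ratio of negative over positive cells was 0.54 in the *Hoxb1*-GFP line and -0.14 in the *Mef2c-Cre* line, a difference of 0.69. At the *Hand2* coding region 1208 bp from the start it was 0.94 and -1.10, a difference of 2.04, and the local background there was 2.53 times the genome level in Tomato+ replicate 6 and 1.5 in replicate 8. The part of the local background was not tested. Tomato- is 1 library.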

How the results depend on the processing

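The labels pair no replicates, since each number occurs in 1 group, and no paired analysis was possible because no result comes from a test. The counts below are of regions around the 8 genes, in the order given, and were 139 in all, 10 higher in GFP+ than Tomato+, 4 the reverse, 8 higher in GFP+ than GFP-, 3 the reverse, 11 higher in Tomato+ than Tomato- and 30 the reverse. With q at most 0.0001 there were 41 regions, 6 higher in GFP+ than Tomato+, 0 higher in GFP- than GFP+, 7 higher in Tomato+ than Tomato- and 8 the reverse, against 10.6%, 9.18%, 11.3% and 27% of the genome. With the 30000 smallest p per list the same counts were 31, 5, 0, 7 and 4 (genome 11.9%, 10.1%, 12.7% and 24.4%), since fewer regions enter. Windows of 25 kb held 91 regions, and windows of 100 kb 251, of which 17 were higher in GFP+ than Tomato+, 7 the reverse, 13 higher in GFP+ than GFP-, 9 the reverse and 57 higher in Tomato- than Tomato+, with the genome shares as they were. With at least 50% overlap 1 promoter in place of 3 was open in all 7 libraries. Pileup, fold enrichment itself and leaving out repeat summits were alternatives chosen after seeing the data. By pileup 1 region was higher in GFP- than GFP+ (genome 4.71%). By fold enrichment itself 8 regions were higher in GFP+ than Tomato+ and 6 the reverse (genome 4.24% and 4.7%).

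Leaving out each library in turn gave 10 to 36 regions higher in GFP+ than Tomato+, 4 to 35 the reverse, 8 to 38 higher in GFP+ than GFP-, 3 to 20 the reverse, 11 to 44 higher in Tomato+ than Tomato-, 0 to 18 in GFP+ without a peak in Tomato+ and 0 to 13 the reverse, because a single library then stands for a group. The genome moved likewise, from 5.01% to 22.7% and 23.3% for GFP+ over Tomato+ without GFP+ replicate 3 and 4, and from 4.85% to 22.8% and 23.5% for GFP+ over GFP-. The GFP+ over Tomato+ count was 26 without GFP+ replicate 3, 36 without replicate 4 and 16 without Tomato+ replicate 6. The reverse count was 9 without GFP+ replicate 4, 18 without Tomato+ replicate 6 and 35 without replicate 8. GFP+ over GFP- was 31, 38 and 19 without GFP+ replicate 3, GFP+ replicate 4 and GFP- replicate 1. The reverse was 5, 5, 20 and 18 without these and without GFP- replicate 2. Those 4 counts were out of 119, 129, 130 and 129 regions, and the genome had 7.9%, 8.19%, 21.3% and 19.4%. Tomato+ over Tomato- was 24 without Tomato+ replicate 6 and 44 without replicate 8. Regions in GFP+ without a peak in Tomato+ numbered 8 and 18 without GFP+ replicate 3 and 4 (genome 9.85% and 11%). Without Tomato+ replicate 6 there was 1 (genome 1.45%). The reverse numbered 6 and 13 without Tomato+ replicate 6 and 8 (genome 7.56% and 9.57%). The 14 regions called between GFP+ and Tomato+ kept their direction in all 205 refits that gave a value, and 17 of these refits lost the separation. Refits that gave no value are in neither number. A call already required every library of a group to stand ahead, so refits without 1 library could hardly have reversed it. Without Tomato- its comparison gives no value. Pileups of 10 to 93 limit what 2 libraries can show, and several called differences were smaller than the replicate spread.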

Other observations

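Of the 14 family paralogs, *Gata2*, *Gata3*, *Zfpm1*, *Twist1*, *Twist2* and *Scx* had a promoter open in all 7 libraries, and *Gata1*, the erythroid GATA gene, and *Nkx2-2* in none. Of the 12 partner factors, 10 were open in all 7, with *Irx4*, a ventricular homeobox gene, open in 2 libraries and *Tbx5*, a posterior SHF T-box gene, in 1. Regions soft-masked over more than 50% of the 50 bases on either side of the summit made up 13 of 139 regions around the 8 genes (9.35%), against 22.0% of all regions, and 2 of the 19 common ones against 36.2%.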
